A study of Homo sapiens with 8 samples.

Results

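The fibrillins, the latent TGF-beta binding proteins and the fibulins were followed in CFPAC-1, a human cell line derived from pancreatic ductal adenocarcinoma. The family comprised 10 genes, found by symbol among the 58870 genes of the count table: FBN1, FBN2, FBN3, LTBP1, LTBP2, LTBP3, LTBP4, FBLN1, FBLN2 and EFEMP1. It was chosen by the fall of FBN2 in the comparison described here, so the fold changes of its members are given as a description, without p-values. Cells with an empty vector (EV, n = 4) were compared with cells that overexpressed an ADRA2A transgene (n = 4). ADRA2A encodes the alpha-2A adrenergic receptor, which couples to Gi. Neither group received a drug, and all cultures were kept in IMDM with serum and antibiotics before RNA was taken. The promoter of the transgene and the derivation of the cells, from 1 clone or a pool, are not given in the sources used here. The labels also do not say whether the 4 samples of a group were separate cultures, so the spread and the p-values measure only the difference between these samples, which may be technical.

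Fibrillins are long, cysteine-rich glycoproteins that assemble outside the cell into microfibrils, the scaffold on which elastin is laid down. Latent TGF-beta binding proteins are built from the same kinds of domain and attach to fibrillin. LTBP1 and LTBP3 carry TGF-beta in its inactive, latent form, LTBP4 does so less readily, and LTBP2 does not bind the latent growth factor. Fibulins are shorter relatives that link elastin, microfibrils and basement membranes. In pancreatic tumours much of this matrix is made by fibroblasts, and a cell line shows the share that tumour cells can make by themselves.

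The libraries held between 14427035 and 17528915 counts. ADRA2A had 0 counts in all 4 EV libraries and 112, 142, 154 and 172 counts in ADRA2A replicates 1 to 4, which matches their labels. All 10 epithelial markers examined were present, with summed levels of 12719 to 13340 CPM (counts scaled to library size) in EV and 12783 to 13855 CPM in ADRA2A libraries. Of these 10, 4 fell, among them KRT7 (log2 fold change -0.43) and CDH1 (-0.33), and 4 rose, among them MUC1 (0.79) and ELF3 (0.66), so the sum hides changes in both directions. For comparison, 21.1% of all genes tested were called lower and 21.6% higher, as defined below. Of 6 markers of immune and endothelial cells, CD68 rose from 91.6 ± 2.75 to 114 ± 4.60 CPM and PECAM1 from 0.773 ± 0.300 to 2.44 ± 0.295 CPM (SD, n = 4 each), while PTPRC, CD3E, VWF and CDH5 had 0 to 4 counts. The 10 fibroblast markers summed to 2.92 to 3.83 CPM in EV and 1.85 to 2.40 CPM in ADRA2A libraries. None of these 10 exceeded 1.51 CPM in any library, POSTN was at 0 in all 8, and COL3A1 and FAP never had more than 1 count. The collagen gene COL1A1, not listed here, had 78.4 CPM in EV and 23.9 CPM in ADRA2A libraries (means, n = 4 each). The fibroblast sum was lower in every ADRA2A library than in any EV library, and the part of these marker differences in the results below was not tested. In bulk RNA, fewer cells expressing a gene and less of its RNA per cell cannot be told apart.

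Promoter windows of RefSeq (GRCh38.p14), each running from 250 bases before to 50 bases after a gene's start, were found for 9 of the 10 members, all but EFEMP1. The 4 windows below belong to the members that were called lower or higher in the ADRA2A cells and are the first entry listed for each gene. LTBP1 has 3 entries and LTBP3 has 2, and gene-level counts do not tell which start was used. The FBN2 and LTBP3 windows lie inside the gene spans given below, and that of FBN2 is far from the 5′ end at 128659185. Each is written 5′ to 3′ on the strand of its gene. Capitals mark matches, on either strand, to GGGCGG (a GC box), CAGAC (a SMAD-binding element), TGACG (the core of the cAMP response element) and its full form TGACGTCA, which contains 2 overlapping TGACG matches on opposite strands.

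FBN2, chr5:128538196-128538495, minus strand: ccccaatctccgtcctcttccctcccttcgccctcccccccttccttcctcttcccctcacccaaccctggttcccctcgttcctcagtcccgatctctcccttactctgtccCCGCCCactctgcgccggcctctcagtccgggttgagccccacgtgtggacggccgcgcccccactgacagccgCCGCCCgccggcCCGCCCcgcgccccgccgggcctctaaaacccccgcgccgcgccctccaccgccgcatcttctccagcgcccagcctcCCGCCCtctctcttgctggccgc

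LTBP1, chr2:32946703-32947002, plus strand: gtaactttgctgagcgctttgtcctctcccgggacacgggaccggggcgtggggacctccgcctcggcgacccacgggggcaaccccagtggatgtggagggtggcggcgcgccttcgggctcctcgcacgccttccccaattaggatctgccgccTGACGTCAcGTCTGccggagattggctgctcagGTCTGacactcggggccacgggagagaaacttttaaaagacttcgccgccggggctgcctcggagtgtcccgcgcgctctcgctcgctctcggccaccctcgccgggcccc

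LTBP2, chr14:74612188-74612487, minus strand: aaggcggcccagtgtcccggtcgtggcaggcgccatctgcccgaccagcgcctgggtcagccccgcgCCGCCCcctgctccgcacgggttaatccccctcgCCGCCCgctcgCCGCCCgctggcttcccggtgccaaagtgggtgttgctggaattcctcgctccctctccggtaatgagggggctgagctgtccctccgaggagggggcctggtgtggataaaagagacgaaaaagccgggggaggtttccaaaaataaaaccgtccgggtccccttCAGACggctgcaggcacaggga

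LTBP3, chr11:65558310-65558609, minus strand: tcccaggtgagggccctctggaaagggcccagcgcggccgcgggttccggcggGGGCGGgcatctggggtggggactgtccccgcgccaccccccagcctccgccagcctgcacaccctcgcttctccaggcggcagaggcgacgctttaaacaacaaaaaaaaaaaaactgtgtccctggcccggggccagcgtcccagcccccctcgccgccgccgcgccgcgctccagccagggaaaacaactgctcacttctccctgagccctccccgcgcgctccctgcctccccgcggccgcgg

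These windows were rich in G and C, from 67.0% in LTBP2 to 72.7% in FBN2, against a median of 58.7% over 35116 promoter windows. GGGCGG occurred 4 times in FBN2, 3 times in LTBP2 and 1 time in LTBP3, and not in the LTBP1 window. At least 1 match was present in 45.0% of all windows. CAGAC had 2 matches in LTBP1 and 1 in LTBP2, and 45.3% of all windows held it. The full TGACGTCA lay in the LTBP1 window, starting at position 157 counted from 1 at the 5′ end, and 1.85% of all windows held it (24.6% for TGACG). Searches for TGANTCA (AP-1, in 7.71% of all windows) and CATTCC (TEAD, in 14.0%) gave no match in these 4 windows. A match is a string of letters and not a measured binding site.

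Of the 10 members, 8 passed the filter on low counts and were tested with the other genes, 14785 in all. FBN2, LTBP1 and LTBP2 fell, LTBP3 rose, and FBN1, LTBP4, FBLN1 and EFEMP1 were not called, a call being a Benjamini-Hochberg adjusted p-value under 0.05 in edgeR's quasi-likelihood test. Of all genes tested, 21.1% were called lower and 21.6% higher. The same 4 called members were the only ones of the 8 whose EV and ADRA2A libraries did not overlap, 3 lower and 1 higher, where 19.5% of all genes tested lay apart with ADRA2A lower and 19.7% with ADRA2A higher. Because FBN2's fall in this comparison chose the family, nothing is read from these counts. The median log2 fold change of the 8 members was -0.24, and that of all genes tested was 0.00.

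**Figure D1:**
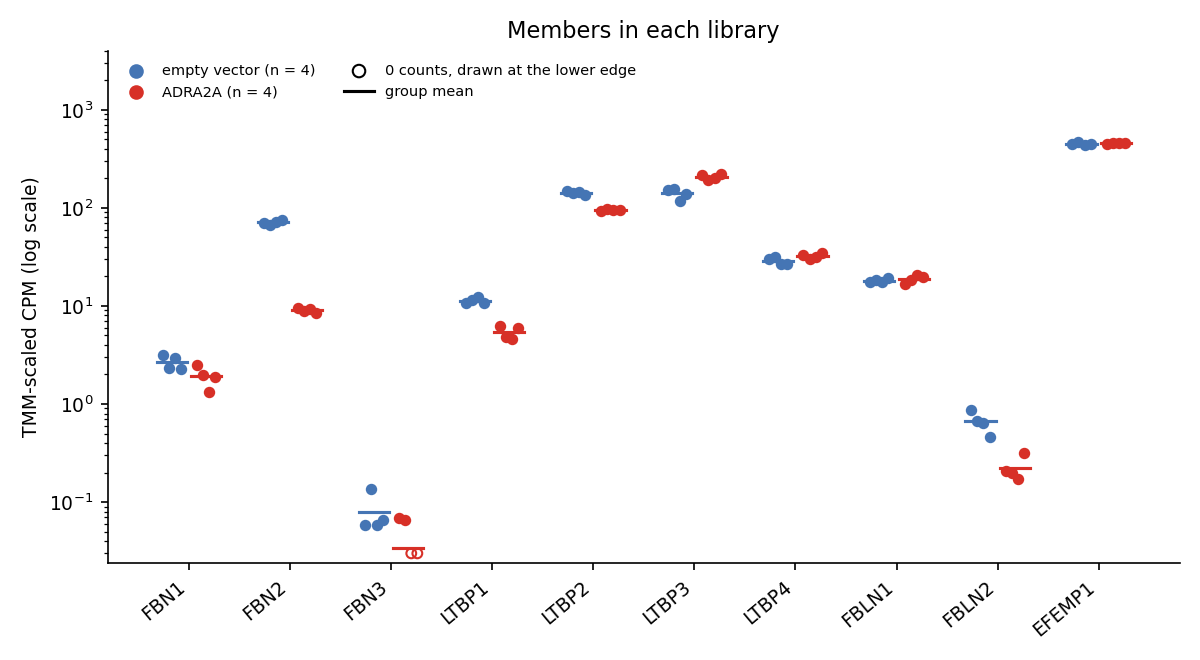
TMM-scaled CPM (log axis) of the 10 members in the 4 empty-vector and 4 ADRA2A libraries, with points for libraries and lines for group means. FBN2 goes from 70.9 to 9.02 CPM, while EFEMP1 stays near 450 CPM in all 8 libraries.

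FBN2 encodes fibrillin 2, the fibrillin most used in embryonic tissue. The gene (ENSG00000138829.12) is protein-coding and lies on the minus strand of chromosome 5, from 128257909 to 128659185 in GENCODE release 44 on GRCh38. In EV replicates 1 to 4 its level was 70.2, 66.2, 72.3 and 75.0 TMM-scaled CPM. In ADRA2A replicates 1 to 4 it was 9.62, 8.78, 9.28 and 8.41 CPM. Every ADRA2A library lay far below every EV library, and within each group the libraries were close together. The ADRA2A mean was 12.7% of the EV mean, a log2 fold change of -2.97 ± 0.07 (SE), and 28 of the 14785 genes tested had a lower one. These values rest on 976 to 1245 counts per EV library and 133 to 162 counts per ADRA2A library. FBN2 went from the 77.8th to the 29.5th percentile of abundance among the genes tested. The gene overlaps exons of SLC27A6 on the opposite strand, which had at most 1 count in any library.

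FBN1 encodes fibrillin 1, the main fibrillin of adult tissue and the gene altered in Marfan syndrome. It lies on the minus strand of chromosome 15 (ENSG00000166147.13; 48408313 to 48645721). Its level was low, at 3.16, 2.31, 2.96 and 2.29 CPM in EV replicates 1 to 4 and 2.49, 1.98, 1.32 and 1.90 CPM in ADRA2A replicates 1 to 4. The groups overlapped, since ADRA2A replicate 1 stood above EV replicates 2 and 4. Its log2 fold change was -0.50 ± 0.23 (SE) at 23 to 54 counts per library, and it was not called. FBN3, the remaining fibrillin, known mainly from fetal tissue, had between 0 and 2 counts in every library and was not tested.

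The balance between FBN2 and FBN1 differed between the groups. FBN2 had 27.0 ± 4.68 times the counts of FBN1 in the EV libraries and 4.94 ± 1.43 times in the ADRA2A libraries (SD, n = 4 each). The EV ratios ran from 22.2 to 32.7 and the ADRA2A ratios from 3.86 to 7.04, so FBN2 remained the more abundant transcript in all 8 libraries. The 2 genes have longest annotated transcripts of similar length, 10927 bases for FBN2 and 11609 bases for FBN1.

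**Figure D2:**
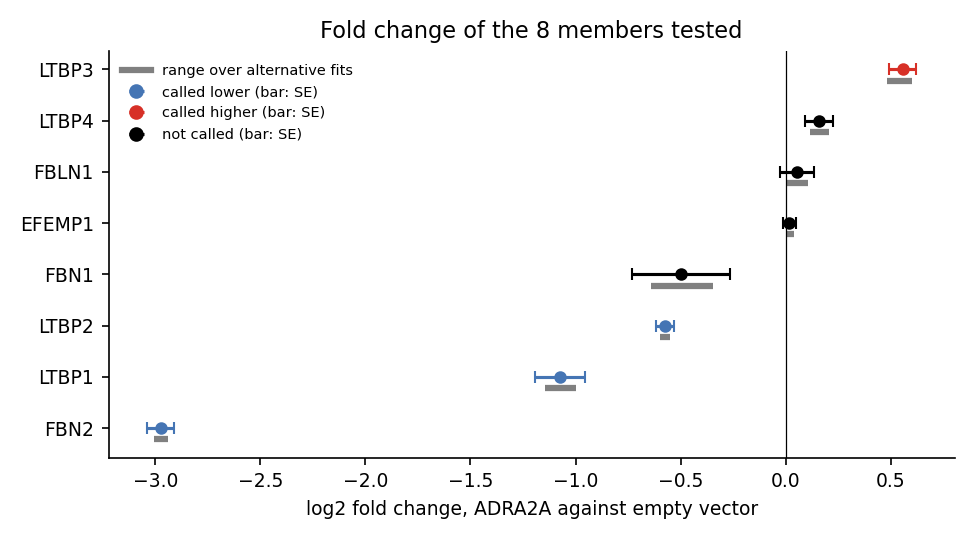
Log2 fold change of ADRA2A against empty vector for the 8 members tested, with standard errors and, as grey bars, the range over the alternative fits. FBN2, LTBP1 and LTBP2 lie below 0 and LTBP3 above it in all fits.

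Among the latent TGF-beta binding proteins, LTBP1 is the best-known carrier of latent TGF-beta (ENSG00000049323.16; chromosome 2, plus strand, 32946953 to 33399509). It fell from 10.8, 11.5, 12.3 and 10.7 CPM in EV replicates 1 to 4 to 6.23, 4.82, 4.58 and 5.95 CPM in ADRA2A replicates 1 to 4. No library of either group reached the range of the other. The ADRA2A mean was 47.7% of the EV mean, a log2 fold change of -1.07 ± 0.12 (SE) on 73 to 211 counts per library.

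LTBP2, which shares the fold of the family without holding latent TGF-beta, was much more abundant (ENSG00000119681.12; chromosome 14, minus strand, 74498183 to 74612378). Its EV replicates 1 to 4 had 148, 140, 144 and 134 CPM, and its ADRA2A replicates 1 to 4 had 92.0, 97.7, 95.3 and 95.6 CPM. LTBP2 was thus lower in all 4 ADRA2A libraries than in any EV library. The ADRA2A mean was 67.2% of the EV mean and the log2 fold change was -0.57 ± 0.04 (SE).

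LTBP3, the second efficient carrier of latent TGF-beta, went the other way (ENSG00000168056.15; chromosome 11, minus strand, 65538559 to 65558930). Its EV replicates 1 to 4 had 153, 155, 118 and 138 CPM, against 215, 192, 201 and 222 CPM in ADRA2A replicates 1 to 4. All ADRA2A libraries were above all EV libraries, although EV replicate 3 was low within its group. The EV libraries varied by a coefficient of 11.9%, where counting error alone at this depth gives 2.10%. LTBP3 rose to 147% of its EV mean, a log2 fold change of 0.56 ± 0.06 (SE).

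LTBP4, which supports elastic fibre assembly (ENSG00000090006.17; chromosome 19, plus strand, 40592883 to 40629818), had 30.1, 31.8, 26.5 and 27.0 CPM in EV replicates 1 to 4. ADRA2A replicates 1 to 4 had 32.8, 30.0, 31.3 and 34.6 CPM. The groups overlapped, and the log2 fold change of 0.16 ± 0.07 (SE) was not called. Without EV replicate 2 it was 0.21 and without ADRA2A replicate 2 it was 0.19, and both of these fits called it higher.

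The opposite courses of LTBP2 and LTBP3 changed the make-up of this subfamily. LTBP3 had 0.998 ± 0.120 times the counts of LTBP2 in EV and 2.18 ± 0.178 times in ADRA2A libraries (SD, n = 4 each). The ratio ran from 0.825 to 1.10 in EV and from 1.97 to 2.33 in ADRA2A libraries, with no overlap. On a per-length scale (TPM, counts divided by gene length and scaled to the library, with the longest annotated transcript as the length), LTBP3 held 54.5% ± 2.79 of the summed level of the 4 genes in EV and 69.9% ± 1.06 in ADRA2A libraries. LTBP2 held 31.5% ± 2.41 and 18.4% ± 1.25, and LTBP1 held 3.28% ± 0.414 and 1.35% ± 0.151, in EV and ADRA2A libraries respectively. LTBP4 held 10.7% ± 0.317 and 10.4% ± 0.111 (all SD, n = 4 each), and its libraries overlapped on this scale.

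Which gene led in the EV cells depended on the length used. With the union of all annotated exons, an alternative chosen after seeing the data, LTBP2 held 47.4% ± 2.53 and LTBP3 37.1% ± 2.69 in EV libraries, and the order turned to 31.6% ± 1.82 and 54.2% ± 1.39 in ADRA2A libraries (SD, n = 4 each). The summed level of the 4 genes was 155 ± 12.1 TPM in EV and 179 ± 11.2 TPM in ADRA2A libraries with the longest transcript. With the union of exons it was 131 ± 7.92 and 133 ± 6.66 TPM. LTBP4 then held 10.8% ± 0.410 in EV and 11.9% ± 0.237 in ADRA2A libraries (SD, n = 4 each), higher in every ADRA2A library than in any EV library. Under both lengths the share of LTBP3 was higher, and those of LTBP1 and LTBP2 lower, in every ADRA2A library than in any EV library.

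**Figure D3:**
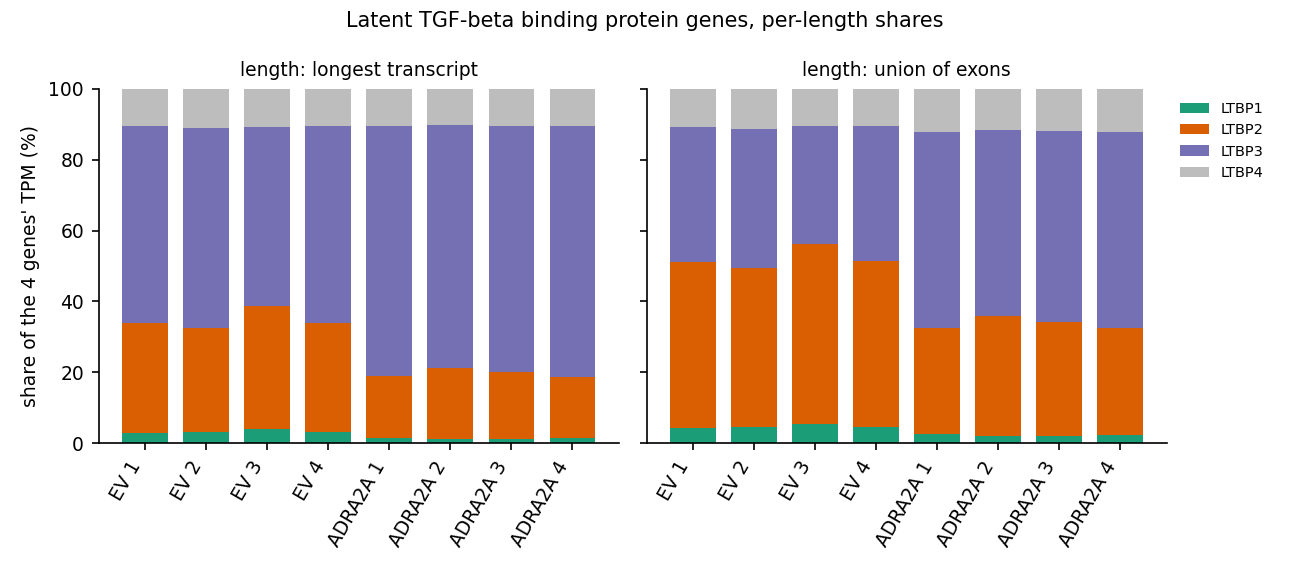
Share of each latent TGF-beta binding protein gene in the summed TPM of the 4 genes (percent, y axis) for each library, with gene length taken as the longest transcript (left) or the union of exons (right). LTBP3 rises from a mean of 54.5% to 69.9% (left) and from 37.1% to 54.2% (right).

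The fibulins showed a different picture. EFEMP1 encodes fibulin 3, a secreted glycoprotein of basement membranes and elastic tissue (ENSG00000115380.20; chromosome 2, minus strand, 55865967 to 55924139). It was the most abundant member, at 446, 470, 436 and 452 CPM in EV replicates 1 to 4 and 450, 458, 463 and 455 CPM in ADRA2A replicates 1 to 4. The groups lay on top of each other, with a log2 fold change of 0.02 ± 0.03 (SE). At 6503 to 8090 counts per library this is the best-measured member, and its coefficient of variation was 3.18% in EV and 1.22% in ADRA2A libraries, where counting error alone gives 1.18% in each group.

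FBLN1, whose product fibulin 1 binds fibronectin and basement membrane proteins (ENSG00000077942.19; chromosome 22, plus strand, 45502238 to 45601135), had 17.4, 18.4, 17.5 and 19.1 CPM in EV replicates 1 to 4. Its ADRA2A replicates 1 to 4 had 16.7, 18.2, 20.5 and 19.5 CPM, a range that enclosed that of EV. The log2 fold change was 0.05 ± 0.08 (SE). FBLN2, which encodes fibulin 2 (ENSG00000163520.14; chromosome 3, plus strand, 13549125 to 13638422), did not pass the filter. It had 15, 10, 11 and 7 counts in EV replicates 1 to 4 and 3, 3, 3 and 5 counts in ADRA2A replicates 1 to 4. Its libraries did not overlap either, but these few counts give no firm fold.

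Per length, with the longest transcript, the order of the members in EV cells was EFEMP1 (431 ± 13.6 TPM), LTBP3 (84.5 ± 10.3), LTBP2 (48.4 ± 2.14), FBN2 (18.8 ± 1.11), FBLN1 (18.0 ± 0.886), LTBP4 (16.6 ± 1.42), LTBP1 (5.03 ± 0.268), FBN1 (0.668 ± 0.113), FBLN2 (0.446 ± 0.117) and FBN3 (0.0248 ± 0.0116; SD, n = 4 each). FBN2, FBLN1 and LTBP4 overlapped in their ranges over the 4 libraries and were not separable. FBN1 and FBLN2 also overlapped. In ADRA2A cells EFEMP1 (439 ± 2.17 TPM), LTBP3 (125 ± 9.57) and LTBP2 (32.7 ± 0.597) still led. FBN2 (2.40 ± 0.148 TPM) left the group of FBLN1 (18.7 ± 1.54) and LTBP4 (18.6 ± 1.33) and stood level with LTBP1 (2.41 ± 0.395). These ties and parts of the order depended on the length. With the union of exons the EV means were 62.1 TPM for LTBP2, 48.8 for LTBP3, 15.8 for FBN2, 14.2 for LTBP4 and 9.89 for FBLN1. In ADRA2A cells they were then 15.9 TPM for LTBP4, 10.3 for FBLN1, 2.94 for LTBP1 and 2.02 for FBN2.

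The tested genes next to each member on its chromosome were examined, 10 on each side. Around FBN2 their median log2 fold change was 0.06, with 14 of 20 above 0. CHSY3, at -1.67, was the lowest of them and the next was at -0.31. Around LTBP1 the median was 0.07, around LTBP2 -0.03 and around LTBP3 0.06. Over all 8 members tested these medians ran from -0.08 (FBLN1) to 0.07 (LTBP1). Of these neighbours, 15 of 20 were above 0 around LTBP1, 11 of 20 below 0 around LTBP2 and 13 of 20 above 0 around LTBP3. The median log2 fold change of all genes tested was 0.00, and nothing is read from these splits. With 25 genes on each side the median around LTBP3 turned to -0.09, with 32 of 50 below 0. LTBP3's own value of 0.56 was just above the highest neighbour, at 0.55.

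**Figure D4:**
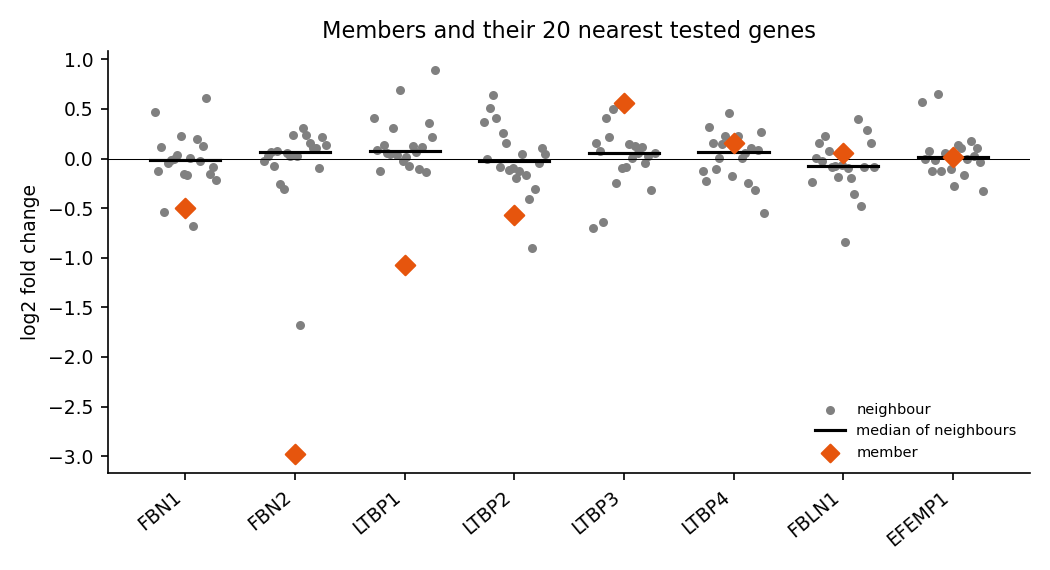
Log2 fold change (y axis) of each member tested (orange) and of the 10 nearest tested genes on each side along the chromosome (grey), with the median of these neighbours as a line. The medians lie between -0.08 and 0.07, and FBN2 at -2.97 lies far below its neighbours.

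Genes that build elastic fibres with the family formed a list of 21, of which 15 were tested. LOX, LOXL2, LOXL3 and FN1 fell, VCAN, ELN and HSPG2 rose, and 8 were not called. The median log2 fold change was 0.04. Among all genes tested, 21.1% were called lower and 21.6% higher. FN1 encodes fibronectin, the matrix on which fibrillin is first assembled, and fell to 15.6 ± 1.83 CPM from 37.6 ± 0.694 CPM (SD, n = 4 each; log2 fold change -1.27 ± 0.07, SE; edgeR adjusted p = 4.35e-11). LOXL2, a lysyl oxidase that cross-links collagen and elastin, went from 20.8 ± 0.814 to 9.28 ± 1.65 CPM (SD, n = 4 each; log2 fold change -1.16 ± 0.10, SE; edgeR adjusted p = 2.29e-08). The related LOX, at 1.13 to 2.89 CPM in the group means, had a log2 fold change of -1.35, and LOXL3 had -0.61.

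VCAN encodes versican, a large proteoglycan that binds fibrillin microfibrils. Its level rose to 256 ± 18.5 CPM from 97.9 ± 3.52 CPM (SD, n = 4 each; log2 fold change 1.39 ± 0.05, SE; edgeR adjusted p = 2.26e-14). ELN, the elastin gene, was barely expressed, with 6, 6, 10 and 0 counts in EV replicates 1 to 4 and 10, 25, 30 and 26 counts in ADRA2A replicates 1 to 4 (log2 fold change 2.05 ± 0.47, SE; edgeR adjusted p = 0.00143). HSPG2, the perlecan gene, had a small difference (log2 fold change 0.14 ± 0.06, SE; edgeR adjusted p = 0.0459) that 9 of 15 alternative fits did not call, DESeq2 among them (adjusted p = 0.198). The fibulins outside the family were scarce. FBLN5 and EFEMP2 were tested and not called, and FBLN7 did not pass the filter.

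Of 10 ADAMTS and ADAMTS-like genes whose products bind fibrillin, 6 were tested. The median over these 6 was 0.03 on the log2 scale. To set the calls below in context, 21.6% of the 14785 genes had a higher call and 21.1% a lower call. ADAMTS10 (2.29 ± 0.37, SE; edgeR adjusted p = 5.35e-05) and ADAMTSL4 (1.03 ± 0.25, SE; edgeR adjusted p = 0.00216) rose, both with group means under 3 CPM. None was called lower in the main edgeR fit, in DESeq2 or in limma voom. At an unadjusted p-value under 0.05, 2 were lower in the main edgeR fit. Some other edgeR fits, given in the last section, called 1 lower (ADAMTSL3).

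Growth factors held in latent complexes, and the integrins and proteins that release them, made a list of 20, of which 1 was not analysed here and 13 were tested. THBS1, ITGB8, ITGAV and MMP14 fell, ITGB3, TGFB2, BMP1, ITGB5 and ITGB1 rose, and the median log2 fold change was 0.00. Across all genes tested, 21.1% were called lower and 21.6% higher. THBS1 encodes thrombospondin 1, which can activate latent TGF-beta, and fell from 1119 ± 52.1 to 257 ± 8.46 CPM (SD, n = 4 each; log2 fold change -2.12 ± 0.04, SE; edgeR adjusted p = 4.92e-19). ITGB8, the beta chain of an integrin that activates latent TGF-beta, fell from 169 ± 4.81 to 128 ± 9.55 CPM (SD, n = 4 each; log2 fold change -0.40 ± 0.05, SE; edgeR adjusted p = 7.61e-07). ITGB3, another beta chain that pairs with the alpha V chain, rose from 11.6 ± 1.46 to 33.8 ± 2.25 CPM (SD, n = 4 each; log2 fold change 1.54 ± 0.09, SE; edgeR adjusted p = 2.32e-11).

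Of the TGF-beta ligands analysed here, TGFB2 rose from 458 ± 16.5 to 527 ± 12.6 CPM (SD, n = 4 each; log2 fold change 0.20 ± 0.03, SE; edgeR adjusted p = 5.29e-05). TGFB3 had 13.3 ± 0.838 CPM in EV and 11.4 ± 0.981 CPM in ADRA2A libraries (SD, n = 4 each) and was not called (log2 fold change -0.23 ± 0.09, SE; edgeR adjusted p = 0.0522), but it was called lower in 3 of 15 alternative fits. BMP1, whose protease product cleaves latent TGF-beta binding protein, had a log2 fold change of 0.19. Of 9 growth factors of the BMP and GDF type that bind fibrillin, 3 were tested, where 21.1% of all genes tested were called lower and 21.6% higher. BMP2 fell at a low level (log2 fold change -0.94 ± 0.19, SE; edgeR adjusted p = 4.99e-04), and BMP4 and GDF11 were not called. None was higher in edgeR, also at an unadjusted p-value under 0.05, nor in DESeq2 or limma voom.

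The list of genes known to respond to TGF-beta held LTBP2 and 11 others, of which 10 were tested. Among these 10, COL1A1, SNAI2, PMEPA1, CCN2, TGIF1 and TGFBI fell, SKIL and BHLHE40 rose, and SMAD7 and ID1 were not called. Their median log2 fold change was -0.14. As a baseline for this split, lower calls made up 21.1% and higher calls 21.6% of the 14785 genes in the main edgeR fit. COL1A1, a collagen chain gene, fell by 1.72 on the log2 scale (SE 0.05; edgeR adjusted p = 3.41e-15). PMEPA1, a feedback inhibitor of TGF-beta signalling, fell by 0.58 (SE 0.04; edgeR adjusted p = 9.21e-11), SNAI2 fell by 0.85 and CCN2 fell by 0.45. SKIL, another feedback inhibitor, rose by 0.31 (SE 0.06; edgeR adjusted p = 3.50e-04).

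**Figure D5:**
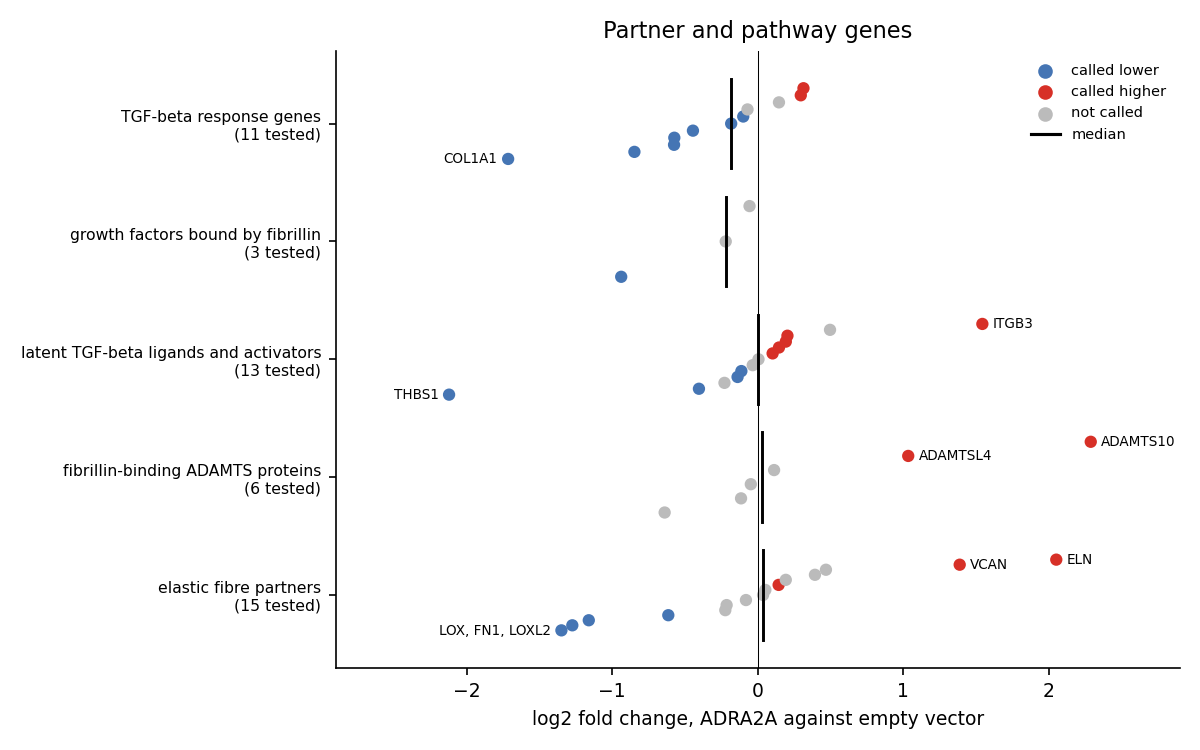
Log2 fold change (x axis) of the tested genes of the 5 partner and pathway lists, coloured by call, with list medians as lines and genes beyond 1 in either direction named. Members of each list lie on both sides of 0, except for the 3 tested growth factors bound by fibrillin, and the medians run from -0.22 to 0.04.

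The genes whose log2 CPM followed that of FBN2 most closely over the 8 libraries, among 10380 genes whose higher group mean reached 10 CPM, were THBS1, COL1A1, CCBE1, LIPG and COL4A2. Their Pearson correlations with FBN2 ran from 0.998 to 0.999. As all points fall into 2 groups of 4 libraries, such values reflect mainly the difference between the groups. THBS1 and COL1A1 are described above. CCBE1, a secreted collagen- and calcium-binding EGF domain protein needed for lymphatic growth, went from 164 ± 6.69 to 81.1 ± 2.28 CPM, and COL4A2, a basement membrane collagen chain gene, from 412 ± 5.39 to 276 ± 7.11 CPM (SD, n = 4 each). LIPG, which encodes endothelial lipase, went from 50.1 ± 0.995 to 23.6 ± 0.872 CPM (SD, n = 4 each).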

How the data were processed

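RNA sequencing libraries of 8 CFPAC-1 samples were examined. The authors deposited estimated counts per gene, unscaled between samples, and the submitters' processing notes name cutadapt, STAR, RSEM and DESeq2 with hg38. Tool versions, annotation and use of strand are not given in the sources used here, so reads from genes that overlap on opposite strands cannot be told apart. These estimates were rounded to integers before testing. All 8 columns were matched to samples by title.

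Genes kept by filterByExpr (14785 of 58870) were tested with edgeR 4.0.16 (quasi-likelihood, TMM factors, group only), with Benjamini-Hochberg adjustment over all genes tested. Alternatives used DESeq2 1.42.0, limma 3.58.1 (voom), other factors, filters and a replicate block. The fit was tested on simulated data. CPM are TMM-scaled. Standard errors are the absolute log2 fold change divided by the square root of F. Lengths and GRCh38 coordinates came from GENCODE release 44. TPM were computed from counts per length.

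Members and lists were chosen with earlier results of these data known. All 10 members are named. From each list the called genes whose higher group mean reached 10 CPM were named (at most 5 by absolute fold), with TGFB2, TGFB3, ELN and FN1. CHSY3, called genes under 10 CPM, and the remaining listed genes were picked for naming with their values in view.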

Additional observations from a re-analysis of the deposited data

Results flagged for a closer look

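ELN in ADRA2A replicate 1 stood apart from its group, at 0.692 CPM (10 counts), where the other 3 ADRA2A libraries had 1.64 to 1.72 CPM. Its gap to the nearest library was 0.928 of the range of the group, above Dixon's 95% critical value for 4 libraries. Such a gap arises by chance in about 1 in 20 groups. The check covered 50 groups of 4, from which those of FBN3 were left out for too few counts. No member of the family that had enough counts to be examined passed this limit.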

How the results depend on the processing

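The fold changes of FBN2, LTBP1, LTBP2 and LTBP3 kept their direction and their call in each of 15 alternative fits, with ranges of -3.01 to -2.94 for FBN2, -0.60 to -0.55 for LTBP2 and 0.48 to 0.60 for LTBP3, and a lowest value of -1.14 for LTBP1. FBN1, FBLN1 and EFEMP1 were called in none, and FBN1 was not tested in the fit with a mean of at least 50 counts. The number of members called lower was 3 in all fits except that with no filter, which also called FBLN2. Leaving out 1 library moved the members called higher between 1 and 2 (LTBP4, without EV or ADRA2A replicate 2). At a mean of at least 50 counts, fewer genes were tested, and 2 elastic fibre partners and 0 of the growth factors bound by fibrillin were lower. LOX, LOXL3, BMP2, ADAMTS10 and ADAMTSL4, called in the main fit, had means under 50 counts and were not tested there. Of the fibrillin-binding ADAMTS genes, 0 were then higher and 1 (ADAMTSL3) was lower. That gene was also the 1 called lower with upper quartile factors and with the replicate block, and 0 to 1 were lower when 1 library was left out. The cause of the other changes was not tested. Same-numbered libraries did not vary together (correlations of -0.04 to 0.07). Such values cannot show whether same-numbered samples were handled together. The block raised all calls from 6314 to 6400. With DESeq2 5823 genes were called. TPM moved with the gene length used, by over 1.5 times for LTBP3 and FBLN1. Depth limits FBN3 (0 to 2 counts) and FBLN2 (3 to 15 counts).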
